A study of Homo sapiens with 6 samples.

Results

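The genes described here are 10 components of transforming growth factor beta (TGF-beta) signalling: the ligands TGFB1 and TGFB2, the type II receptor TGFBR2, the signal transducers SMAD2, SMAD3 and SMAD4, the inhibitory SMAD6 and SMAD7, the SMAD repressor SKIL and the secreted target TGFBI. They were chosen by symbol, as all probe sets that the platform annotation assigns to 1 of these genes alone. This gave 35 probe sets for 10 of the 19775 genes on the array, and the brightest probe set over the 6 arrays stood for each gene. All 10 genes were among the 10526 with a mean of at least 4 on the log2 scale, which were tested. The cells were H1299, a human lung cancer line, infected for 72 hours with a lentivirus carrying an shRNA. All 6 samples were grown with 10% serum. The groups were RBP2 KD1 and RBP2 KD2, which are separate shRNAs against the histone demethylase gene RBP2 (now KDM5A), and a scramble shRNA as control, with 2 arrays each. All groups carried a lentivirus and an shRNA, and no group of uninfected cells was analysed here. Whether the 2 arrays of a group hold RNA of different cultures is not stated in the labels, so every p-value below reflects how far these arrays differed, a spread that may be technical.

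TGF-beta ligands are secreted in a latent form and, once released, bring the type II receptor TGFBR2 together with the type I receptor TGFBR1. The active receptor phosphorylates SMAD2 and SMAD3, which join SMAD4 and enter the nucleus to switch genes on or off. Several of those target genes encode brakes of the same pathway: SMAD7 blocks and degrades the receptors, SMAD6 acts mainly against the related bone morphogenetic protein (BMP) branch, and SKIL, also called SnoN, represses SMAD-driven transcription. In lung epithelium the pathway is known both for arresting growth and for promoting migration and matrix production.

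The promoters of TGFBI, SMAD6, SMAD7 and SKIL, the matrix target and the brakes of the pathway, are shown because much of the account below is about them. They were picked after their values and motif matches had been seen. Each line gives the 250 bases before the RefSeq start (GRCh38.p14), 5′ to 3′ on the gene's own strand. Capitals mark GTCTAGAC, the palindromic SMAD element, CAGAC or its complement GTCTG, the short SMAD box, and CCGCCC or its complement GGGCGG, the letters bound by the DNA-binding ARID domain of RBP2 in vitro, which are also the core of the GC box.
TGFBI, chr5:136028738-136028987, plus strand: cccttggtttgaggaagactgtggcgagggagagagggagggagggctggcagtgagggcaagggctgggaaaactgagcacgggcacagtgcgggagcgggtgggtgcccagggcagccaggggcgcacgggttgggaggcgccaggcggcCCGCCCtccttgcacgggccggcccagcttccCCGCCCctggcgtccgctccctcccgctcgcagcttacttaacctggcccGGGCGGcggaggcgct
SMAD6, chr15:66701986-66702235, plus strand: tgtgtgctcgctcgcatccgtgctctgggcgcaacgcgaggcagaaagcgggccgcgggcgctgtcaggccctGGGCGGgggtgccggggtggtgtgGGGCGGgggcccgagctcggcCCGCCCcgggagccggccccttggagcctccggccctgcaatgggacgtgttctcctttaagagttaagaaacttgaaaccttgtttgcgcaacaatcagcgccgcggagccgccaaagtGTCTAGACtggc
SMAD7, chr18:48950966-48951215, minus strand: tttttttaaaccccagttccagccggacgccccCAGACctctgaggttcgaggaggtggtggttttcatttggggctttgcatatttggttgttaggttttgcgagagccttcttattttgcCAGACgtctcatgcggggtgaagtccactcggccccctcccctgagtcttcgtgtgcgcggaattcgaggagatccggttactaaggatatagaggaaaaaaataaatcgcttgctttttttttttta
SKIL, chr3:170357465-170357714, plus strand: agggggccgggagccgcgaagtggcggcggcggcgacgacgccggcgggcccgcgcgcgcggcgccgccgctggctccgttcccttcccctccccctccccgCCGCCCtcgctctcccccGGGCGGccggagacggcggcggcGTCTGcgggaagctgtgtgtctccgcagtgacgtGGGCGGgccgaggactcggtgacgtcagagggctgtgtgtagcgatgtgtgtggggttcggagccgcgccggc

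The SMAD6 window holds the palindrome GTCTAGAC, which begins 12 bases before the start. This element was in 64 of 35116 RefSeq windows of the same length (0.182%), and in 1 of the 18 windows of the 10 genes, several of which have more than 1 start. Counting all 18 windows in place of the first window of each gene was decided after both counts had been seen, and the first windows are given beside them. The SMAD7 window holds the short box CAGAC at 2 places and SKIL holds its complement GTCTG once. CAGAC or GTCTG was in 6 of the 18 windows, in 3 of the 10 first windows and in 38% of all. CCGCCC or GGGCGG occurred 3 times each in the TGFBI, SMAD6 and SKIL windows and not in the SMAD7 window shown. It was in 9 of the 18 windows and 7 of the 10 first windows, and 42.6% of all windows held it. Of the other motifs searched on both strands, GGCGC or GCGCC, a GC-rich SMAD motif, was in 9 of the 18 and 8 of the 10 first windows, against 44.5% of all, and TGACTCA or TGAGTCA, the AP-1 site, was in 1 of the 18 and 0 of the 10 first windows, against 4.2% of all. Such matches describe letters and show no binding.

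The target of both shRNAs was lower in all 4 knockdown arrays. KDM5A read 7.42 and 7.27 in KD1 cells and 6.66 and 6.72 in KD2 cells, against 9.35 and 9.42 in scramble cells, on the log2 scale that holds for all levels below. The array medians over tested genes lay between 8.49 and 8.56. The keratins KRT8 and KRT18 and the mesenchymal VIM were well above the filter. The other epithelial markers KRT19, EPCAM and CDH1 stayed at or below 2.30 on every array. Of 3 lung markers only SFTPB passed the filter, with 4.96 on every array but KD1 replicate 2 (5.17). Such a repeated lowest value does not show that SFTPB was expressed. None of the 3 immune and 3 endothelial markers analysed here passed the filter. Of 4 fibroblast markers COL1A1 alone did. In RNA of a whole culture, fewer expressing cells and less RNA per cell cannot be told apart.

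TGFBI, the matrix target, rose with both shRNAs, while the other calls fell to different genes with each shRNA. By its brightest probe set, no gene of the 10 was called lower than scramble with either shRNA; at an unadjusted p under 0.05, 1 was lower in KD1 cells and 0 in KD2 cells. A gene was called at an adjusted p under 0.05 (limma, Benjamini-Hochberg over all 10526 genes). In KD1 cells 3 of the 10 genes rose, SMAD6, SKIL and TGFBI, where 3.62% of all tested genes were called higher, 7.9% lower and 11.5% in either direction. This count was 0 in a fit of the KD1 and scramble arrays alone, with 5 genes at an unadjusted p under 0.05, and 0 whichever of the 6 arrays was left out of the full fit. In KD2 cells 4 rose, TGFB2, SMAD2, SMAD3 and TGFBI, against 16.7% of all genes called higher, 14.4% lower and 31% in either direction. Leaving out 1 array at a time gave 1 to 3 calls. The mean of both shRNAs gave 3 higher, TGFBI, SMAD6 and SKIL, against 5.61% of all genes called higher, 6.92% lower and 12.5% in either direction, and 0 whichever array was left out. Where an array is left out, the lone array of its group is assumed to vary like those of the other groups. Calls among all tested genes also fell in every such fit, and in that of the KD1 and scramble arrays alone. The losses were therefore not particular to the 10 genes. For a comparison with scramble, leaving out either array of the other shRNA gave the same counts as fitting the compared groups alone. Those fits are not separate checks. TGFBI was the 1 gene of the 10 called higher with both shRNAs (1.65% of all genes), and none was called lower with both (1.5% of all genes). The median log2 fold change of the 10 genes was 0.58 in KD1 cells and 0.58 in KD2 cells, with 0.00 and 0.08 over all tested genes. In 5 genes, TGFB1, SMAD3, SMAD7, SKIL and TGFBI, all 4 knockdown arrays lay above both scramble arrays, an order that 12.9% of tested genes shared. Over all tested genes, both KD1 arrays lay above both scramble arrays in 26.4% and below them in 27.4%. Both KD2 arrays lay above both scramble arrays in 40% and below them in 29.8%. They lay above both KD1 arrays in 40.6% and below them in 32.2%. The comparisons of KD1 and of KD2 with scramble use the same scramble arrays, so they are not independent.

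**Figure D1:**
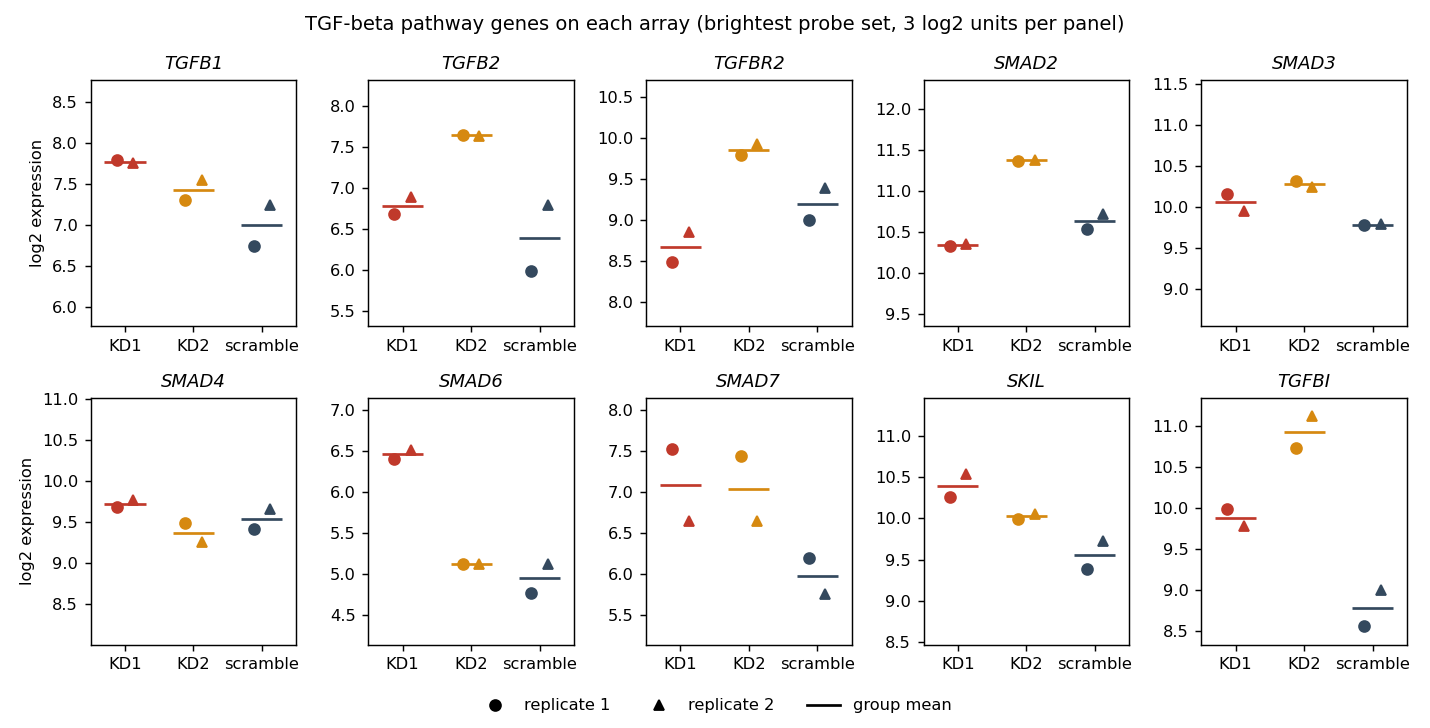
Log2 expression of the 10 TGF-beta pathway genes on each of the 6 arrays (brightest probe set), in KD1, KD2 and scramble cells, with circles for replicate 1, triangles for replicate 2 and a line for the mean of 2 arrays. Each panel spans 3 log2 units. TGFBI lies at 9.78 or higher on all 4 knockdown arrays and at 9.0 or lower in scramble cells, and replicate 1 lies above replicate 2 for SMAD7 in every group.

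The replicate numbers were taken to pair the samples, because same-numbered arrays deviated together across genes in all 3 pairs of groups. With the replicate number as a block, 6 of the 10 genes were called in KD1 cells, 5 higher and 1 lower, where 29.6% of all genes were called (12.8% higher and 16.8% lower). In KD2 cells 7 were then called, all higher, where 50.6% were (28.4% higher), and in the mean of both shRNAs 7, where 34.9% were. SMAD7, SKIL and TGFBI were called higher with both shRNAs in that fit, as 5.59% of all genes were. The calls added in the mean were TGFB1 (limma adjusted p = 0.028), TGFB2 (0.032), SMAD3 (0.031) and SMAD7 (0.0076), and those added with either shRNA are named below with each gene.

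Below, adjusted p-values of a gene's further probe sets are over all 18763 probe sets with a mean of at least 4, of which 9.46% were called in KD1 cells, 27.6% in KD2 cells and 38.1% between the shRNAs. Among the ligands, TGFB2 rose in KD2 cells. TGFB2 read 6.68 and 6.89 in KD1 cells and 7.65 and 7.64 in KD2 cells, against 5.99 and 6.80 in scramble cells. Both KD2 arrays lay above all others, while the scramble arrays differed by 0.82. In 40% of all tested genes the KD2 arrays lay above both scramble arrays. The log2 fold change was 1.25 ± 0.28 (SE, limma adjusted p = 0.028) in KD2 cells, or 2.38-fold, and 0.39 ± 0.28 (adjusted p = 0.42) in KD1 cells. The other probe set with a mean of at least 4, called measurable here, gave 1.20 (adjusted p = 0.027) and 0.16 (adjusted p = 0.75) for KD2 and KD1, and the remaining 3 were at 2.52 or lower on every array. The KD2 call was lost when any array but replicate 2 of scramble was left out. The log2 fold change was 0.84 without replicate 1 of scramble and 1.66 without replicate 2 of scramble.

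TGFB1 was not called with either shRNA. It read 7.79 and 7.75 in KD1 cells and 7.30 and 7.55 in KD2 cells, against 6.75 and 7.24 in scramble cells. The log2 fold changes were 0.78 ± 0.20 (adjusted p = 0.072) in KD1 cells and 0.43 ± 0.20 (adjusted p = 0.16) in KD2 cells. With the replicate number as a block TGFB1 was called higher in KD1 cells (limma adjusted p = 0.025). The dimmer of its probe sets gave 0.08 (adjusted p = 0.87) in KD1 cells and -0.49 (adjusted p = 0.19) in KD2 cells, so the fold changes in KD2 cells had opposite signs by probe set.

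The receptor TGFBR2 differed between the knockdowns. TGFBR2 read 8.49 and 8.85 in KD1 cells and 9.79 and 9.93 in KD2 cells, against 9.0 and 9.39 in scramble cells. The KD1 arrays were the lowest pair and the KD2 arrays the highest, with no overlap between the 3 groups. Of all tested genes, 27.4% had both KD1 arrays below scramble and 40% had both KD2 arrays above it. In 40.6% both KD2 arrays lay above both KD1 arrays. Neither group was called against scramble, with log2 fold changes of -0.53 ± 0.20 (adjusted p = 0.16) in KD1 cells and 0.66 ± 0.20 (adjusted p = 0.060) in KD2 cells. With the block both were, lower in KD1 cells (adjusted p = 0.027) and higher in KD2 cells (adjusted p = 0.0082). The difference of KD1 minus KD2 was -1.19 ± 0.20 (limma adjusted p = 0.0092), or 2.28-fold, and was lost without KD2 replicate 1 or KD2 replicate 2 (adjusted p up to 0.066). The second TGFBR2 probe set stayed between 2.28 and 2.29 on all arrays.

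Of the receptor-activated SMADs, SMAD3 rose in KD2 cells by all its measurable probe sets, 1 of which was measurable only through its KD2 values. Its brightest probe set read 10.16 and 9.95 in KD1 cells and 10.32 and 10.24 in KD2 cells, against 9.78 and 9.79 in scramble cells. All 4 knockdown arrays were above scramble. The log2 fold change in KD2 cells was 0.49 ± 0.12 (adjusted p = 0.036), and in KD1 cells 0.27 ± 0.12 (adjusted p = 0.22). The other 2 measurable probe sets gave 0.96 ± 0.17 and 1.40 ± 0.25 in KD2 cells (adjusted p = 0.017 for each), and -0.01 and -0.06 in KD1 cells. Their differences of KD1 minus KD2 were -0.97 (limma adjusted p = 0.012) and -1.46 (adjusted p = 0.011). The brightest gave -0.23 (adjusted p = 0.21) in the same fit. The dimmest, 205397_x_at, read 4.23 and 3.67 in KD1 cells and 5.63 and 5.18 in KD2 cells, against 4.02 and 4.01 in scramble cells. Its mean of 4.46 was at least 4 only through the KD2 arrays, so its rise there is no separate support. The call of the brightest probe set was lost without KD2 replicate 1, KD2 replicate 2, scramble replicate 1 or scramble replicate 2 (adjusted p up to 0.15).

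SMAD2 gave opposite results in KD2 cells by different probe sets. The brightest read 10.33 and 10.36 in KD1 cells and 11.37 and 11.38 in KD2 cells, against 10.54 and 10.72 in scramble cells, a rise of 0.74 ± 0.11 in KD2 cells (adjusted p = 0.011). The next, 203077_s_at, also rose in KD2 cells (0.44 ± 0.10, adjusted p = 0.033). Another, 226563_at, read 8.69 and 8.69 in KD1 cells and 5.70 and 6.67 in KD2 cells, against 8.47 and 8.45 in scramble cells. By that probe set SMAD2 fell by 2.28 on the log2 scale in KD2 cells (adjusted p = 0.011). In KD1 cells the 5 measurable SMAD2 probe sets lay between -0.28 and 0.23 and none was called. The difference of KD1 minus KD2 was -1.03 ± 0.11 by the brightest probe set (adjusted p = 0.0031), called whichever array was left out, and 2.51 ± 0.32 by 226563_at (adjusted p = 0.0053). The part of the SMAD2 transcripts that each probe set detects was not analysed here. The KD2 rise by the brightest probe set was lost without KD2 replicate 1, KD2 replicate 2 or scramble replicate 1 (adjusted p up to 0.070).

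SMAD4, the shared partner, was not called by its brightest probe set, which read 9.68 and 9.76 in KD1 cells and 9.48 and 9.25 in KD2 cells, against 9.41 and 9.65 in scramble cells. Its log2 fold changes were 0.18 (95% interval -0.19 to 0.55) in KD1 cells and -0.17 (-0.54 to 0.21) in KD2 cells. A dimmer probe set, 235725_at, read 7.93 and 8.26 in KD1 cells and 5.66 and 6.36 in KD2 cells, against 7.27 and 7.71 in scramble cells, and fell by 1.48 in KD2 cells (adjusted p = 0.023). The third measurable one gave -0.45 in KD2 cells (adjusted p = 0.069). Between the shRNAs, KD1 minus KD2, these 2 dimmer SMAD4 probe sets gave 2.09 (adjusted p = 0.0067) and 0.55 (adjusted p = 0.032), and the brightest 0.35 (adjusted p = 0.12), in the fit over all probe sets. In KD1 cells 235725_at gave 0.61 (adjusted p = 0.26), called with the block (adjusted p = 0.032).

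**Figure D2:**
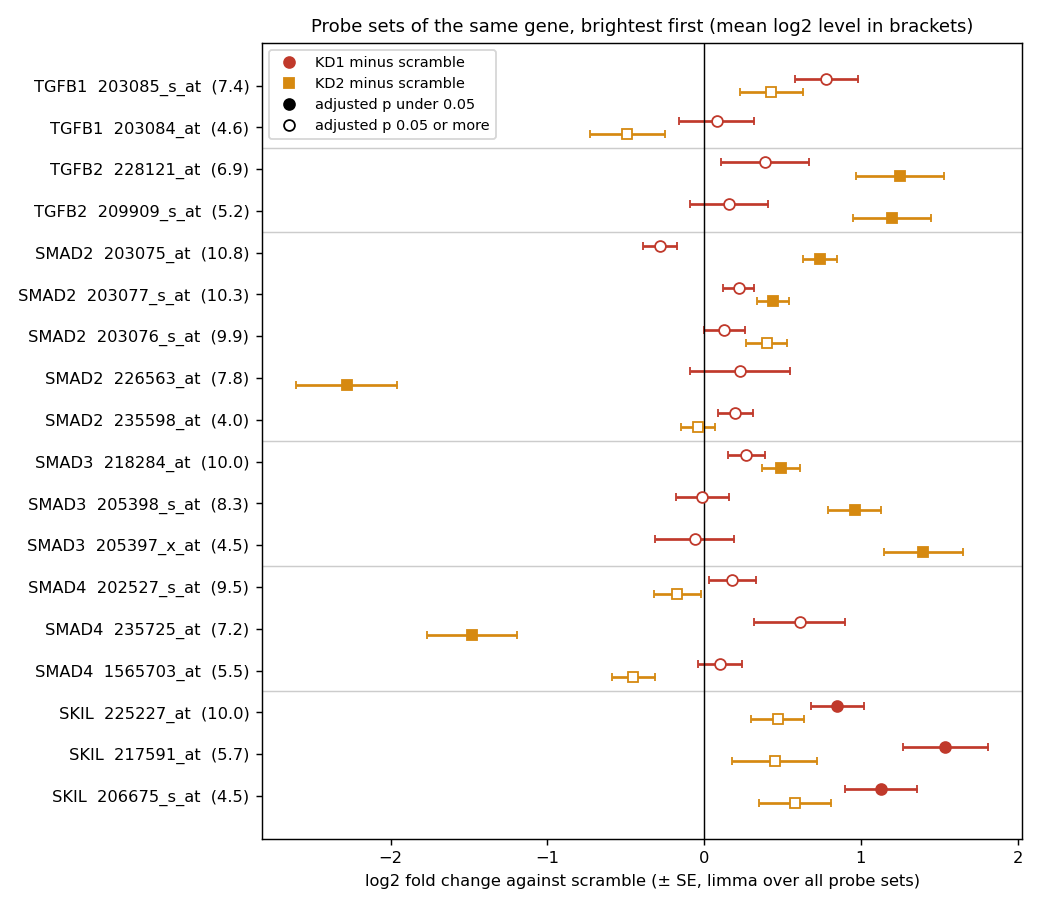
Log2 fold change against scramble (horizontal axis, ± SE) of every measurable probe set of 6 TGF-beta genes with more than 1, brightest first, with circles for KD1 and squares for KD2, filled where the adjusted p over all probe sets was under 0.05. The 3 SKIL probe sets are filled for KD1 and the 3 SMAD3 probe sets for KD2. The dimmest SMAD3 probe set shown was measurable only through its KD2 values. SMAD2 ranges from -2.28 to 0.74 in KD2.

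Of the inhibitory SMADs, SMAD6 rose in KD1 cells. SMAD6 read 6.40 and 6.52 in KD1 cells and 5.13 and 5.13 in KD2 cells, against 4.77 and 5.13 in scramble cells. Both KD1 arrays stood more than 1 log2 unit above the other 4, and the KD2 arrays equalled the higher scramble array. The rise in KD1 cells was 1.51 ± 0.16 (adjusted p = 0.011), or 2.85-fold, and the value in KD2 cells was 0.18 ± 0.16 (adjusted p = 0.41). The difference of KD1 minus KD2 was 1.33 ± 0.16 (limma adjusted p = 0.0037), called whichever array was left out. The KD2 arrays and scramble replicate 2 held the same value to within 1e-06, as 1597 of the tested genes did on some pair of arrays. The spread within KD2 is therefore no estimate of error for SMAD6. The shared value was not the lowest of the probe set, as scramble replicate 1 read 4.77, and why it recurred was not tested. The other 3 probe sets stayed at or below 2.26 on all arrays, so SMAD6 rests on 1 probe set. The call in KD1 cells was lost whichever of the 6 arrays was left out, with log2 fold changes of 1.33 to 1.70.

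SMAD7, measured by 1 probe set, was about equally high with both shRNAs but was not called. It read 7.52 and 6.64 in KD1 cells and 7.44 and 6.64 in KD2 cells, against 6.19 and 5.76 in scramble cells. Replicate 2 was below replicate 1 in every group, by 0.88 in KD1, 0.80 in KD2 and 0.42 in scramble cells. The log2 fold changes were 1.11 ± 0.41 (adjusted p = 0.15) and 1.07 ± 0.41 (adjusted p = 0.11) in KD1 and KD2 cells. Within replicate 1 they were 1.34 and 1.25, and within replicate 2 both were 0.88. With the block both were called (adjusted p = 0.010 for KD1 and 0.0051 for KD2). The difference of KD1 minus KD2 was 0.04, with a 95% interval of -1.0 to 1.09.

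SKIL, the SMAD repressor, rose in KD1 cells by all 3 of its measurable probe sets. The brightest read 10.26 and 10.54 in KD1 cells and 9.99 and 10.06 in KD2 cells, against 9.39 and 9.72 in scramble cells. The groups did not overlap, and KD2 cells lay between the others. All 4 knockdown arrays were above scramble in 12.9% of all tested genes, and both KD2 arrays were below both KD1 arrays in 32.2%. The rise in KD1 cells was 0.85 ± 0.17 (adjusted p = 0.041), or 1.80-fold, and the KD2 value was 0.47 ± 0.17 (adjusted p = 0.092), which was called with the block (adjusted p = 0.021). The other SKIL probe sets gave 1.13 ± 0.23 (adjusted p = 0.045) and 1.54 ± 0.27 (adjusted p = 0.034) in KD1 cells. In KD2 cells they gave 0.58 (adjusted p = 0.12) and 0.45 (adjusted p = 0.27). The difference of KD1 minus KD2 was 0.37 ± 0.17 by the brightest (adjusted p = 0.14) and 1.09 ± 0.27 by 217591_at (adjusted p = 0.030). The KD1 call of the brightest was lost whichever of the 6 arrays was left out (adjusted p 0.089 to 0.16).

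TGFBI, a secreted matrix protein named for its induction by TGF-beta, had the largest rise of the 10 genes in KD2 cells and rose with both shRNAs. TGFBI read 9.99 and 9.78 in KD1 cells and 10.73 and 11.12 in KD2 cells, against 8.56 and 9.0 in scramble cells. The 3 groups did not overlap, with KD2 highest. All 4 knockdown arrays were above scramble in 12.9% of all tested genes, and both KD2 arrays were above both KD1 arrays in 40.6%. The rise was 2.15 ± 0.22 (adjusted p = 0.0048), or 4.43-fold, in KD2 cells and 1.10 ± 0.22 (adjusted p = 0.040), or 2.15-fold, in KD1 cells. The rise in KD2 cells was called whichever array was left out. That in KD1 cells was called in none of these fits, which are not all distinct, with log2 fold changes of 0.88 to 1.32. The difference of KD1 minus KD2 was -1.04 ± 0.22 (adjusted p = 0.018), lost without KD1 replicate 1, KD1 replicate 2, KD2 replicate 1 or KD2 replicate 2 (adjusted p up to 0.096). TGFBI has 1 probe set on the array.

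**Figure D3:**
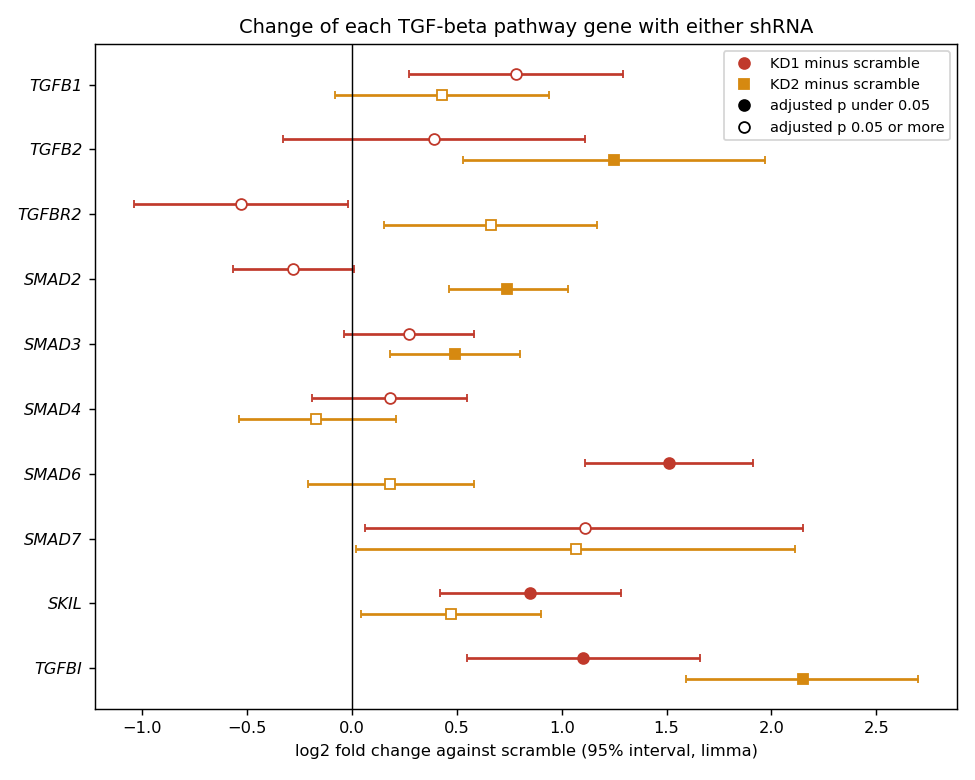
Log2 fold change against scramble (horizontal axis, with the 95% interval of limma) of the 10 genes, with circles for KD1 and squares for KD2, filled where the adjusted p was under 0.05. TGFBI is filled for both, SMAD6 and SKIL for KD1, and TGFB2, SMAD2 and SMAD3 for KD2.

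Direct comparison of the knockdowns called 4 of the 10 genes, SMAD6 higher and TGFBR2, SMAD2 and TGFBI lower in KD1 than in KD2 cells. This share is close to the 41.1% of all tested genes called between the shRNAs (17.8% higher and 23.3% lower in KD1). With the block 6 were called, TGFB2 (adjusted p = 0.026) and SKIL (0.036) in addition, where 57.7% of all genes were. KDM5A itself was higher in KD1 than in KD2 cells by 0.65 ± 0.11 (limma adjusted p = 0.010), and its part in these differences was not tested.

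Of TGFBI, whose adjusted p for both shRNAs averaged was the smallest of the 10, the profile over the 6 arrays was closest to those of PIP5K1C, COG7 and TRERF1. Likeness was the root mean square difference of log2 values after subtracting each gene's scramble mean, 0.21, 0.25 and 0.26 for these genes, with a median of 1.41 over all 10525 others. The log2 fold changes of PIP5K1C, a lipid kinase, were 1.43 in KD1 and 2.11 in KD2 cells. Those of COG7, a Golgi tethering subunit, were 0.98 and 2.08, and those of TRERF1, a transcriptional regulator, were 1.10 and 2.14.

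Beyond the 10 genes, a list of 91 others of the pathway and its BMP branch was examined, of which 85 were analysed here and 58 passed the filter and were tested. In KD1 cells 5 were called higher and 2 lower, 12.1% of those tested, near the 11.5% of all genes. In KD2 cells 10 were higher and 5 lower, 25.9%, against 31% of all genes. With the block the counts were 15 and 5 in KD1 cells, where 12.8% of all genes were called higher and 16.8% lower, and 17 and 14 in KD2 cells, where 28.4% were called higher and 22.2% lower. The median log2 fold change of the list was 0.10 in KD1 and 0.05 in KD2 cells. ITGAV and SMURF2 were the 2 of the 58 tested list members called higher with both shRNAs, where 1.65% of all tested genes were. None was called lower with both, where 1.5% of all tested genes were.

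The BMP-branch SMADs fell in KD2 cells. SMAD5 read 10.19 and 10.24 in KD1 cells and 8.29 and 8.50 in KD2 cells, against 9.77 and 9.71 in scramble cells. It fell by 1.34 in KD2 cells (adjusted p = 0.0039) and had 0.47 in KD1 cells (adjusted p = 0.070, and 0.033 with the block), and its 5 measurable probe sets lay between -1.65 and -1.03 in KD2 cells. SMAD1 fell by 0.74 (adjusted p = 0.013) and SMAD9 by 0.94 (adjusted p = 0.023) in KD2 cells, with 0.12 and 0.20 in KD1 cells. All 3 differed between the knockdowns, by 1.82 for SMAD5 (limma adjusted p = 0.0013), 0.85 for SMAD1 (0.0059) and 1.15 for SMAD9 (0.0096), higher in KD1 cells. Of the 11 tested genes in the group of other SMADs and partners these 3 were the only ones called in KD2 cells. They are 27.3% of the group, where 31% of all genes were called in KD2 cells (14.4% lower). In KD1 cells 0 were called by limma, where 11.5% of all genes were, and 5 were higher at an unadjusted p under 0.05. With the block 5 were called in KD1 cells, all higher, where 29.6% of all genes were called (12.8% higher). In KD2 cells 2 were then higher and 4 lower, where 28.4% of all genes were called higher and 22.2% lower. TGIF2, a SMAD corepressor, had 0.93 (adjusted p = 0.060) in KD1 and 0.69 (adjusted p = 0.069) in KD2 cells, both called with the block (0.014 and 0.016). In the fit over all probe sets another TGIF2 probe set gave 1.13 (adjusted p = 0.074) in KD1 cells and 1.19 (adjusted p = 0.036) in KD2 cells. Its relative TGIF1 had -0.08 in KD1 and -0.41 in KD2 cells (adjusted p = 0.061, and 0.030 with the block), and a dimmer TGIF1 probe set gave -0.88 in KD2 cells (adjusted p = 0.040). EP300, a histone acetyltransferase and SMAD coactivator, had 0.44 in KD1 cells (adjusted p = 0.078, and 0.043 with the block) and -0.15 in KD2 cells. TRIM33, a SMAD4-binding ubiquitin ligase, had 0.43 in KD1 cells (adjusted p = 0.081, and 0.042 with the block) and 0.29 in KD2 cells, and another of its probe sets gave 0.64 (adjusted p = 0.033) and -0.26.

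Among ligands, their antagonists and latency factors, 1 of 10 tested genes rose in KD1 cells and 4 rose in KD2 cells, with none called lower, where 3.62% of all genes were called higher in KD1 cells and 16.7% in KD2 cells. ITGAV, the integrin subunit that with beta partners releases latent TGF-beta, read 12.23 and 12.15 in KD1 cells and 12.15 and 11.98 in KD2 cells, against 11.38 and 11.58 in scramble cells. It rose by 0.71 ± 0.13 (adjusted p = 0.035) and 0.58 ± 0.13 (adjusted p = 0.027). ITGB8, one of those partners, read 3.22 and 3.65 in KD1 cells and 5.75 and 5.31 in KD2 cells, against 3.22 and 3.22 in scramble cells. Its rise of 2.31 in KD2 cells (limma adjusted p = 0.0042) rests on scramble arrays that shared its lowest value with KD1 replicate 1. The size of the rise depends on that value. The mean of ITGB8, 4.06, passed the filter of 4 only through the KD2 arrays. Its place among the 4 genes that rose in KD2 cells therefore depended on those same values. LTBP1, which binds latent TGF-beta to the matrix, rose by 1.58 in KD2 cells (adjusted p = 0.0080) and had -0.80 in KD1 cells (adjusted p = 0.075, and 0.021 with the block). NOG, a secreted BMP antagonist, read 4.58 and 4.12 in KD1 cells and 7.89 and 6.72 in KD2 cells, against 4.55 and 4.54 in scramble cells, and rose by 2.75 ± 0.41 in KD2 cells (adjusted p = 0.010). GDF15, a distant TGF-beta family ligand, had -2.13 (adjusted p = 0.13) in KD1 and -1.44 (adjusted p = 0.19) in KD2 cells, with scramble arrays at 4.84 and 7.10, and LTBP3, another latency protein, had 0.70 and 0.50, neither called.

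Of 8 tested receptors, TGFBR3, the co-receptor betaglycan, rose by 0.94 ± 0.13 in KD1 cells (adjusted p = 0.018), with -0.16 in KD2 cells, and a second probe set gave 0.96 in KD1 cells. BMPR1B, a type I BMP receptor, fell by 0.63 in KD2 cells (adjusted p = 0.046). TGFBR1 had -0.26 and -0.11 in KD1 and KD2 cells, and neither passed. BMPR2, the type II BMP receptor, had -0.57 in KD1 and -1.38 in KD2 cells (adjusted p = 0.062), and both passed with the block (0.032 and 0.0022). The activin and BMP receptor ACVR1 had -0.31 in KD1 and 0.68 in KD2 cells (adjusted p = 0.081, and 0.024 with the block). ACVR1B had 0.09 and 0.21, and ACVR2A -0.15 and 0.09, in KD1 and KD2 cells, and neither activin receptor was called.

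Of 11 tested genes of receptor and SMAD turnover, 2 rose in KD1 cells (18.2%, with 11.5% of all genes called) and 3 in KD2 cells (27.3%, with 31% of all genes called). SMURF2, a ubiquitin ligase that SMAD7 recruits to the receptors, read 12.38 and 12.33 in KD1 cells and 12.47 and 12.65 in KD2 cells, against 11.53 and 11.76 in scramble cells. It rose by 0.70 (adjusted p = 0.037) and 0.91 (adjusted p = 0.010). Of its 3 other probe sets 1 gave 0.85 in KD2 cells, and the others gave -0.25 and -0.01 there. RNF111, known as Arkadia, which marks SKIL and SMAD7 proteins for degradation, rose by 0.92 ± 0.13 in KD1 cells (adjusted p = 0.020) and had 0.04 in KD2 cells. USP11, a deubiquitinase, rose by 0.50 in KD2 cells (adjusted p = 0.025). NEDD4L, a ubiquitin ligase of activated SMAD2 and SMAD3, rose by 0.46 in KD2 cells (adjusted p = 0.042), while its other probe sets gave -0.18 and -0.75 there. SMURF1, the relative of SMURF2, had 0.35 in KD1 and -0.36 in KD2 cells, called against scramble only with the block, as lower in KD2 cells. Its limma adjusted p there was 0.05 after rounding and under 0.05 before it. The ubiquitin ligase WWP1 had -0.09 and 0.51 and was not called against scramble.

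Of 18 tested targets, 1 rose and 2 fell in KD1 cells, and 3 rose and 1 fell in KD2 cells. These are 16.7% and 22.2% of them, with 11.5% and 31% of all genes called in KD1 and KD2 cells. With the block 5 targets were higher and 3 lower in KD1 cells, where 12.8% of all genes were called higher and 16.8% lower. In KD2 cells the balance then turned, with 4 higher and 7 lower, where 28.4% of all genes were called higher and 22.2% lower. MMP2, a matrix protease, read 3.66 and 3.79 in KD1 cells and 5.33 and 6.06 in KD2 cells, against 3.78 and 3.79 in scramble cells. It rose by 1.91 ± 0.25 in KD2 cells (limma adjusted p = 0.0080) and had -0.06 in KD1 cells. Its mean of 4.40 passed the filter of 4 only through the KD2 arrays. Its place among the 3 targets that rose in KD2 cells therefore depended on those same values. ADAM19, a membrane protease, read 5.88 and 5.38 in KD1 cells and 6.95 and 6.06 in KD2 cells, against 4.49 and 4.31 in scramble cells, and rose by 2.11 in KD2 cells (adjusted p = 0.012), with 1.23 in KD1 cells (adjusted p = 0.084, and 0.014 with the block). TGFB1I1, the adaptor Hic-5, rose by 1.03 in KD2 cells (adjusted p = 0.046). KLF10, an early TGF-beta-induced zinc finger factor, fell by 1.34 in KD2 cells (adjusted p = 0.026) and had 0.78 in KD1 cells (adjusted p = 0.16, and 0.016 with the block), a difference of 2.12 between the knockdowns (adjusted p = 0.0055). In KD1 cells BHLHE40, a transcriptional repressor, rose by 1.02 (adjusted p = 0.019), and HMGA2, a chromatin architectural protein, and VEGFA, the vascular growth factor, fell by 1.41 (adjusted p = 0.037) and 1.70 (adjusted p = 0.033). Dimmer VEGFA probe sets gave -0.21 and -0.44 in KD1 cells. The 3 dimmer HMGA2 probe sets gave -0.76, -0.43 and -0.42 in KD1 cells, none called, and 1 of them fell by 1.11 in KD2 cells (adjusted p = 0.013), where the brightest gave -0.19 (adjusted p = 0.64), in the fit over all probe sets. 

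Leaving out 1 array at a time ended all 7 list calls in KD1 cells, whichever array it was (ITGAV, TGFBR3, SMURF2, RNF111, BHLHE40, HMGA2 and VEGFA, adjusted p up to 0.16). In KD2 cells the calls of SMAD5 and ITGB8 held in all 6 such fits (adjusted p up to 0.043), and those of ITGAV, BMPR1B and NEDD4L in none (adjusted p up to 0.20). The KD2 call of MMP2 was lost only without scramble replicate 1 (0.056), that of NOG without either scramble array (up to 0.064) and that of LTBP1 without either KD2 array (up to 0.070). Those of SMAD1, SMAD9 and ADAM19 were lost without KD2 replicate 1 or either scramble array (up to 0.11), and that of SMURF2 without either KD2 array or scramble replicate 1 (up to 0.062). Those of USP11, KLF10 and TGFB1I1 were lost without any 1 of the KD2 and scramble arrays (up to 0.21).

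**Figure D4:**
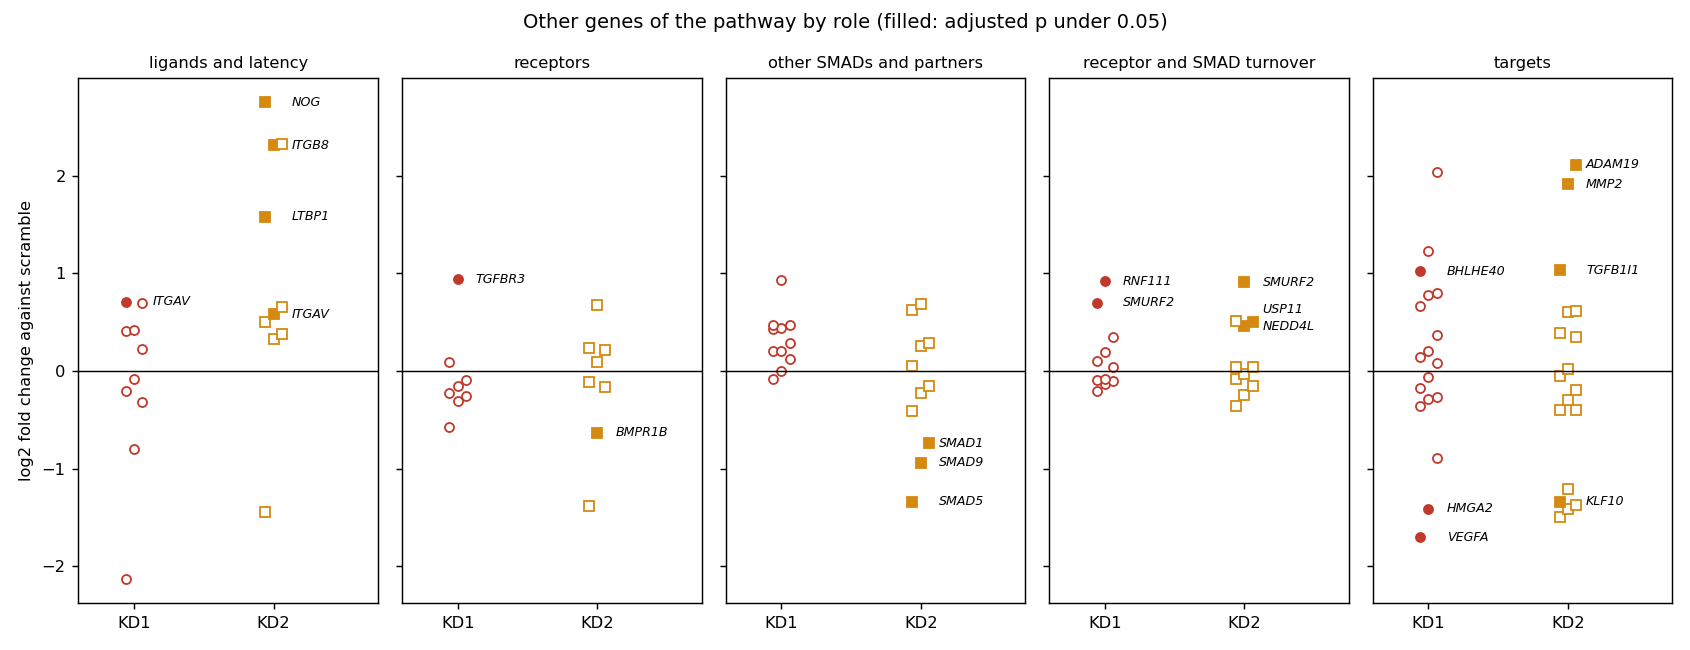
Log2 fold change against scramble (vertical axis) of the 58 tested genes of the wider pathway list, by role, in KD1 (circles) and KD2 (squares), filled and named where the adjusted p was under 0.05. SMAD1, SMAD5 and SMAD9 lie below 0 in KD2, and ITGAV and SMURF2 are filled in both.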

How the data were processed

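Total RNA of H1299 cells, labelled as biotinylated cRNA from 250 ng, was measured on 6 Affymetrix arrays in 3 groups of 2, per the labels' protocols. GCRMA is named in the submitters' processing notes, with no version given. The authors' deposited values are on the log2 scale, as read from their range of 2.24 to 15.9. The lowest value recurred on more than 1 array for 336 tested genes, and differences that involve such a value depend on it. Precision is limited by the 2 arrays per group, with a median SE of 0.17 in a single-shRNA comparison.

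Of 54675 probe sets, 41091 had 1 gene symbol, 1801 several and 11721 none, besides 62 controls; symbols came from the platform annotation, updated through RefSeq (41037 matched). The brightest probe set stood for each of 19775 genes, and 10526 with a mean of at least 4 were tested with limma 3.58.1 in R 4.3.3 (lmFit, contrasts.fit and eBayes over all 6 arrays, 3 residual and 2.09 prior degrees of freedom), with Benjamini-Hochberg adjustment over all tested genes and calls at 0.05. The fit was tested on simulated data. Deviations from group means of same-numbered arrays correlated at 0.75 (scramble and KD1), 0.51 (scramble and KD2) and 0.53 (KD1 and KD2), from the replicate numbers in the labels; fits with these numbers as a block are given where they change a call of a gene named in the report against scramble with either shRNA.

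The 10 genes and the lists were chosen with earlier results of these data known. Named list genes were those called with both shRNAs and, per role, up to 4 with the smallest adjusted p with each shRNA. The promoters printed, the unit of the motif counts, the alternative without tied values, and the restriction of single-gene alternatives on the wider list to called genes were chosen after values had been seen. Some genes of the wider list were not analysed here. Promoters are RefSeq's, on GRCh38.p14.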

Additional observations from a re-analysis of the deposited data

Results flagged for a closer look

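For 27 genes the difference between the shRNAs, KD1 minus KD2, passed its own test (limma, adjusted p under 0.05). They were 4 of the 10 genes (40%) and 23 of the 58 tested list genes (39.7%), close to the 41.1% of all tested genes. Of the 10 genes, SMAD6 was higher in KD1 than in KD2 cells by 1.33 on the log2 scale, and the differences were -1.19 for TGFBR2, -1.03 for SMAD2 and -1.04 for TGFBI. Of the wider list, those higher in KD1 cells were ID2 (3.41), KLF10 (2.12), SMAD5 (1.82), SMAD9 (1.15), TGFBR3 (1.11), BHLHE40 (1.01), RNF111 (0.87), SMAD1 (0.85), SMURF1 (0.71), CREBBP (0.70) and EP300 (0.60). Those lower in KD1 than in KD2 cells were NOG (-2.95), LTBP1 (-2.38), ITGB8 (-2.10), MMP2 (-1.96), VEGFA (-1.40), TGFB1I1 (-1.32), CDKN2B (-1.28), HMGA2 (-1.22), ACVR1 (-0.99), NEDD4L (-0.66), WWP1 (-0.59) and USP11 (-0.40). ID2, CREBBP and CDKN2B fall outside the rule for named genes and were added after their values were seen. Against scramble these genes were called only with the block. ID2 was then higher in KD1 cells (limma adjusted p = 0.0057) and lower in KD2 cells (0.0053). In KD1 cells CREBBP was then higher (0.027) and CDKN2B lower (0.019). The ID2 difference was lost without KD1 replicate 1, KD2 replicate 1 or KD2 replicate 2 (limma adjusted p up to 0.12). SMAD2 differed in the opposite direction by the probe set 226563_at (2.51).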

How the results depend on the processing

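With the replicate number as a block, calls among all genes numbered 3117 (KD1), 5324 (KD2) and 3670 (mean of both shRNAs), against 1213, 3264 and 1318 without it. Of the 10 genes 6, 7 and 7 were then called, against 3, 4 and 3, and of the wider list 20, 31 and 22, with 37 between the shRNAs, against 7, 15, 4 and 23. When dim probe sets were kept there were 311, 1470, 332 and 2477 calls among all genes (KD1, KD2, mean, KD1 minus KD2), 0, 2, 0 and 2 among the 10 genes and 0, 7, 2 and 14 on the list, with more genes tested. Fitting the KD1 and scramble arrays alone gave 191 calls among all genes, 0 among the 10 and 0 on the list, with fewer samples. Centring arrays on their median gave 8 list calls for the mean. Leaving out 1 array at a time gave 0 to 191 (KD1), 624 to 2928 (KD2), 0 to 457 (mean) and 1874 to 3718 (KD1 minus KD2) calls among all genes. Among the 10 genes this gave 0, 1 to 3, 0 and 2 to 5, and on the list 0, 4 to 14, 0 to 1 and 11 to 23. At an unadjusted p under 0.05, the KD1 counts of 0 among the 10 genes correspond to 3 to 7 genes. Directions turned mostly by probe set, and the cause was not tested. Averaging probe sets gave -0.03 for TGFB1 in KD2 cells. For SMAD2 it gave 0.11 (KD1), -0.12 (KD2), -0.01 (mean) and 0.23 (KD1 minus KD2). For SMAD4 it gave -0.12 (mean), and for NEDD4L -0.07 (KD2) and 0.02 (KD1 minus KD2). Without _s_at and _x_at probe sets TGFB1 gave -0.49 (KD2) and -0.20 (mean), SMAD4 -0.44 (mean), NEDD4L -0.75 (KD2) and 0.59 (KD1 minus KD2) and HMGA2 0.57 (KD1 minus KD2). By single probe sets, 203084_at of TGFB1 gave -0.49 (KD2) and -0.20 (mean). In KD1 cells SMAD2 gave 0.13 by 203076_s_at, 0.22 by 203077_s_at, 0.23 by 226563_at and 0.20 by 235598_at. SMAD2 also gave -2.28 (KD2), -1.02 (mean) and 2.51 (KD1 minus KD2) by 226563_at, and -0.04 (KD2) and 0.24 (KD1 minus KD2) by 235598_at. SMAD3 gave -0.06 by 205397_x_at and -0.01 by 205398_s_at (KD1), and SMAD4 -0.17 by 1565703_at and -0.44 by 235725_at (mean). Leaving out 1 array turned values near 0: TGFB2 in KD1 cells (-0.02 to 0.80), TGFBR2 (-0.13 to 0.26) and SMAD4 (-0.11 to 0.13) in the mean, and SMAD7 between the shRNAs (-0.40 to 0.48). Leaving out genes with tied values, an intensity trend in the variance and a filter at 6 turned no direction.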
